A study of Danio rerio with 4 samples.

Results

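The apolipoprotein genes of the yolk layer were followed in whole zebrafish (*Danio rerio*) embryos exposed to SYP-3343. Their members were 9 apolipoprotein genes and *mttp*, chosen by symbol and not by a rule on their values, and they made up 10 of the 28290 gene models in the count table. Of the 10, 8 carried the listed zebrafish symbol, *mttp* was listed in capitals, and *apoba* was taken as the only identifier named *APOB*, without its paralog letter. The libraries came from wild-type embryos, 2 of them treated with SYP-3343, a substance known from the labels by this code alone, at 8 µg/L, starting 3 hours after fertilization and ending at 24 hours, and 2 from untreated controls of the same genotype and stage. No further allele or agent is named in the labels, and how many embryos went into each library is not stated. All libraries were poly-A selected RNA, and the totals were 49075203 and 49962016 counts in SYP-3343 replicates 1 and 2 and 46165614 and 59054470 counts in control replicates 1 and 2. The labels call them biological replicates without naming clutches or tanks, so the p-values set group differences against the spread between these libraries only. In the gene fits below, that spread was estimated with information shared across genes.

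Apolipoproteins are the protein part of lipoproteins, the particles that carry fat and cholesterol between cells. The large, triglyceride-rich particles are built on apolipoprotein B, which the microsomal triglyceride transfer protein, the product of *mttp*, loads with lipid in the endoplasmic reticulum. Smaller apolipoproteins of the A, C and E classes bind and leave the surface of the particle and act on lipases, lipid transfer and receptors. In the zebrafish embryo the yolk syncytial layer, a multinucleate layer between the yolk and the embryo, makes these particles and so passes yolk lipid into the circulation before feeding starts. Whole embryos were measured here, so where a transcript was made was not measured, and fewer cells of a type and less RNA per cell cannot be told apart.

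In exposed embryos *apoa4a*, *apoeb* and *apoa1a* rose, by 1.64-fold, 1.58-fold and 1.34-fold, and *apoba* fell to 0.755 of the control level. The other 6 members, *apobb.1*, *mttp*, *apoa1b*, *apoa2*, *apoc1* and *apoea*, did not pass the threshold. The fold changes of the 10 members ran from -0.41 to 0.72 on the log2 scale, with a median of 0.01, beside a median of -0.01 over all tested genes. Values below are TMM-normalized counts per 1e6 counts (CPM) as mean ± SD with n = 2 libraries per group, log2 fold changes are SYP-3343 minus control ± SE, and adjusted p-values come from edgeR's quasi-likelihood test with Benjamini-Hochberg adjustment over 22647 genes, with a threshold of 0.05. All 10 members passed the filter on low counts, which a gene can pass through 1 group alone. Their smallest count in any library was 1389 (*apoa4a*, control replicate 1), so none entered the test only through the group where it was high. Of the members 3 were higher and 1 lower, while 16.6% of all tested genes were higher and 15.3% lower. A group of 10 genes is too small to read these shares as a difference from the rest.

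**Figure D1:**
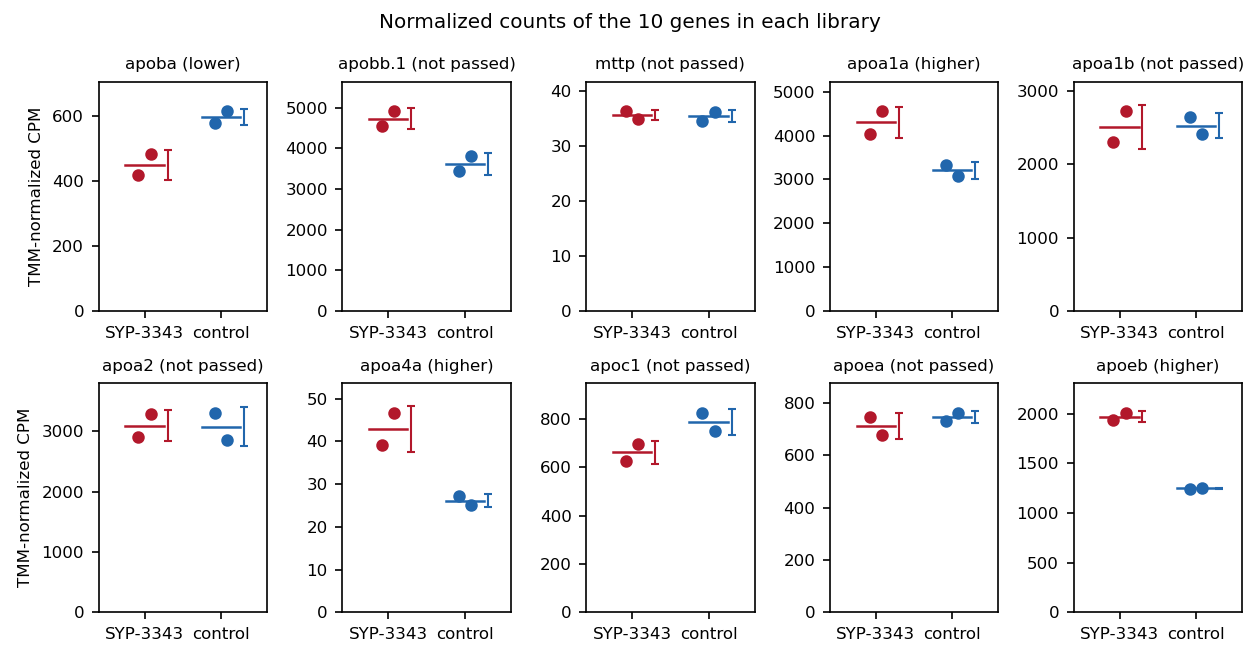
TMM-normalized CPM (y axis, from 0, with a scale of its own for each gene) of the 10 genes in the 2 SYP-3343 libraries (red, left) and the 2 control libraries (blue, right). Points are libraries, horizontal bars are means and error bars are SDs. *apoa4a*, *apoeb*, *apoa1a* and *apobb.1* have both SYP-3343 points above both control points, *apoba* and *apoc1* have both below, and the other 4 genes overlap. Of all tested genes 32.2% had both SYP-3343 libraries above both controls and 33.7% had both below.

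The 2 apolipoprotein B genes among the members lay on opposite sides of control, and only the lower of them passed. *apoba* (ENSDARG00000042780), a backbone gene, had 418 and 483 CPM in SYP-3343 replicates 1 and 2, against 579 and 614 CPM in control replicates 1 and 2. The groups did not overlap, and *apoba* averaged 450.3 ± 46.4 CPM in SYP-3343 and 597 ± 24.8 CPM in control (log2 fold change -0.41 ± 0.11, adjusted p = 0.00541). Its call ended without SYP-3343 replicate 1, the lower of the exposed libraries (log2 fold change -0.30, adjusted p = 0.0961, within a span of 4.40e-06 to 0.0961 over its 14 alternatives). *apobb.1* (ENSDARG00000022767), the other backbone gene, had 4553 and 4905 CPM in the SYP-3343 libraries, against 3429 and 3810 CPM in the control libraries. Here too the groups did not overlap, with SYP-3343 above control, but the difference did not pass (log2 fold change 0.39 ± 0.15, adjusted p = 0.0540). It passed in 4 of the 14 alternatives: DESeq2, limma-voom, the fit without a low-count filter and the legacy quasi-likelihood fit (adjusted p from 0.000119 to 0.640 over all 14). 

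*mttp* (ENSDARG00000008637), whose product lipidates apolipoprotein B, had 36.3 and 35.0 CPM in the SYP-3343 libraries, against 34.6 and 36.3 CPM in the control libraries. The 4 values interleaved, and the log2 fold change was 0.01 ± 0.095 (adjusted p = 0.967). Of the genes that build the core of the particle, 1 backbone gene fell, and for the other backbone gene and the loading enzyme the change did not pass.

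Class A apolipoproteins sit on high-density particles and on chylomicron-like particles. *apoa4a* (ENSDARG00000101160), of the A-IV type linked in mammals to fat absorption, had 39.1 and 46.7 CPM in the SYP-3343 libraries, against 27.2 and 25.1 CPM in the control libraries. It averaged 42.9 ± 5.32 CPM in SYP-3343 and 26.1 ± 1.47 CPM in control (log2 fold change 0.72 ± 0.10, adjusted p = 1.86e-05), and it was called higher in all 14 alternatives. *apoa1a* (ENSDARG00000012076), which encodes the main protein of high-density particles, had 4047 and 4551 CPM in the SYP-3343 libraries, against 3336 and 3071 CPM in the control libraries. The groups did not overlap and the rise passed (log2 fold change 0.42 ± 0.15, adjusted p = 0.0317), but with less room than that of *apoa4a*. The *apoa1a* call ended without control replicate 1 (adjusted p = 0.193), without control replicate 2 (0.360) and without SYP-3343 replicate 2 (0.159), and over its 14 alternatives the adjusted p ran from 3.11e-05 to 0.360.

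The other A genes gave overlapping values. *apoa1b* (ENSDARG00000101324), the second gene for apolipoprotein A-I, had 2294 and 2717 CPM in the SYP-3343 libraries, against 2644 and 2406 CPM in the control libraries (log2 fold change -0.01 ± 0.14, adjusted p = 0.965). *apoa2* (ENSDARG00000015866), another protein of high-density particles, had 2909 and 3281 CPM in the SYP-3343 libraries, against 3303 and 2853 CPM in the control libraries (log2 fold change 0.01 ± 0.14, adjusted p = 0.976). For *apoa1b* the exposed libraries lay on either side of both controls, for *apoa2* they lay between them, and the spread within a group was larger than the difference of the means.

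Class C and E proteins regulate lipases and receptor uptake. *apoeb* (ENSDARG00000040295), an apolipoprotein E gene and thus a ligand of receptors of the LDL receptor family, had 1933 and 2008 CPM in the SYP-3343 libraries, against 1245 and 1252 CPM in the control libraries. The spread within each group was small beside this gap, with means of 1970.5 ± 52.6 CPM in SYP-3343 and 1249 ± 5.18 CPM in control (log2 fold change 0.66 ± 0.12, adjusted p = 0.000248), and the rise was called in all 14 alternatives. *apoea* (ENSDARG00000102004), the other apolipoprotein E gene, had 747 and 676 CPM in the SYP-3343 libraries, against 729 and 761 CPM in the control libraries, and the groups overlapped (log2 fold change -0.07 ± 0.11, adjusted p = 0.678). *apoc1* (ENSDARG00000092170), whose mammalian counterpart inhibits cholesteryl ester transfer, had 628 and 696 CPM in the SYP-3343 libraries, against 826 and 751 CPM in the control libraries. Its exposed libraries lay below both controls without passing (log2 fold change -0.25 ± 0.11, adjusted p = 0.0851), and it was called lower in 3 of the 14 alternatives, with adjusted p from 2.88e-05 to 0.413.

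Because a ratio of counts within a library needs no scaling factor, paralogs were also set against each other directly. The *apoa1a* over *apoa1b* ratio was 1.76 and 1.67 in SYP-3343 replicates 1 and 2, against 1.26 and 1.28 in control replicates 1 and 2, so the balance moved 1.35-fold towards *apoa1a*. The *apoea* over *apoeb* ratio was 0.386 and 0.337 in SYP-3343, against 0.586 and 0.607 in control, a change to 0.604 of the control ratio. The *apoba* over *apobb.1* ratio was 0.0917 and 0.0985 in SYP-3343, against 0.169 and 0.161 in control, a change to 0.576 of the control ratio. Copies differ in length, so the ratios say nothing of which copy had more transcripts, and only their change between groups is read. In none of the 3 pairs did the groups overlap. Such a gap is common for single genes set over *mttp*, while its share among pairs of other genes was not computed. Of all other tested genes set over *mttp*, 30.5% had both SYP-3343 ratios above both control ratios and 33.9% had both below. The lack of overlap is thus a description only. The differences in log2 ratio, SYP-3343 minus control, were 0.44 ± 0.20, -0.73 ± 0.16 and -0.80 ± 0.18. Their SEs were combined from the fits of the 2 genes as if these were independent. The SDs of the log2 ratios themselves, in the same order, were 0.053, 0.14 and 0.073 in SYP-3343 and 0.012, 0.037 and 0.048 in control. An exact two-sided permutation test over the 4 libraries gave p = 0.333 for each, which is the smallest p that 2 against 2 libraries allow. The sources used here do not say how reads that match 2 copies were counted.

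**Figure D2:**
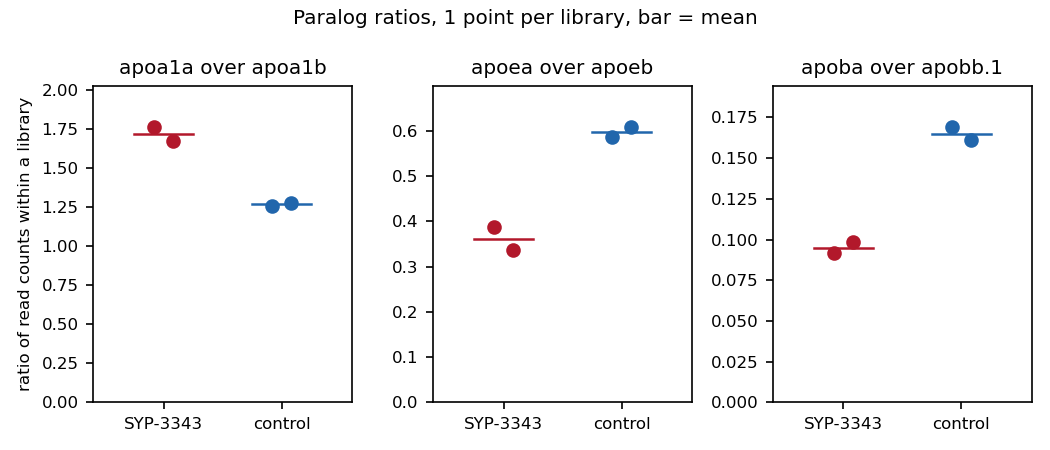
Ratio of read counts of 2 paralogs within a library (y axis, from 0) in the 2 SYP-3343 libraries (red, left) and the 2 control libraries (blue, right), with bars at the means. The *apoa1a* over *apoa1b* ratio is higher in SYP-3343, and the *apoea* over *apoeb* and *apoba* over *apobb.1* ratios are lower, each with no overlap. Of all other tested genes set over *mttp*, 30.5% had both SYP-3343 ratios above both controls and 33.9% had both below. The same shares for pairs of other genes were not computed.

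With *mttp* as the common denominator, 7 of the other 9 members had ratios that did not overlap between the groups, 4 higher and 3 lower in SYP-3343. Of all other tested genes set over *mttp* in the same way, 30.5% had both SYP-3343 ratios above both control ratios and 33.9% had both below, so these counts are read as a description only. *apoeb* over *mttp* was 53.3 and 57.4 in SYP-3343, against 35.9 and 34.5 in control. *apoa4a* over *mttp* was 1.08 and 1.33 in SYP-3343, against 0.784 and 0.692 in control. *apoba* over *mttp* was 11.5 and 13.8 in SYP-3343, against 16.7 and 16.9 in control. The other lower ratios were those of *apoc1* and *apoea*, and *apoea* over *mttp* differed by -0.08 on the log2 scale. That is less than an SE of 0.14 combined from the fits of the 2 genes as if these were independent. The SDs of this log2 ratio between libraries were 0.064 in SYP-3343 and 0.0031 in control. The *apoa1b* and *apoa2* ratios overlapped.

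Taken as a pool, the 10 genes held 1.62% and 1.67% of all counts in SYP-3343 replicates 1 and 2 (exact binomial 95% intervals 1.621% to 1.628% and 1.664% to 1.671%), against 1.79% and 1.77% in control replicates 1 and 2 (1.785% to 1.793% and 1.769% to 1.776%). Such intervals cover counting error only. The mean share was lower in SYP-3343 by 0.135 percentage points, which is more than the spread within either group (exact two-sided permutation p = 0.333, the smallest this design allows). Without the 20 most abundant other genes in the total, the difference shrank to -0.0460 percentage points. These are shares of raw totals. With the TMM factors used for the CPM values above, the pool was instead higher in SYP-3343. Shares within the pool also differed between the groups. *apoeb* took 11.0% and 10.3% of the pooled counts in SYP-3343 and 7.71% and 8.04% in control, and *apoa1a* took 23.0% and 23.5% in SYP-3343 and 20.7% and 19.7% in control. *apobb.1* took 25.9% and 25.3% in SYP-3343, against 21.2% and 24.5% in control. The shares of *apoa1b* (13.0% and 14.0% in SYP-3343, against 16.4% and 15.4% in control), *apoa2* (16.5% and 16.9%, against 20.5% and 18.3%) and *apoc1* (3.57% and 3.59%, against 5.11% and 4.82%) were lower in the exposed libraries. So were those of *apoba* (2.37% and 2.49% in SYP-3343, against 3.59% and 3.94% in control), *apoea* (4.24% and 3.48%, against 4.51% and 4.88%) and *mttp* (0.206% and 0.180%, against 0.214% and 0.233%), while that of *apoa4a* was higher (0.222% and 0.241%, against 0.168% and 0.161%). The widest exact 95% interval of any of these shares spanned 0.192 percentage points. Because the shares of a library add up to its whole pool, higher shares of some genes lower those of others. A lower share is thus not by itself a lower level. With TMM factors the log2 fold changes of *apoa1b*, *apoa2* and *mttp* were -0.01, 0.01 and 0.01.

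The size of each change, and for some genes its call, depended on how the libraries were scaled. With library sizes alone the median over all genes moved to -0.35 (log2) and that over the 10 members to -0.33, and the calls over all genes became 1406 higher and 9382 lower, against 3770 and 3455 with TMM factors and 3042 and 4462 with upper-quartile factors. Beside that shifted median, *mttp* and *apoa2* (each -0.33), *apoa1b* (-0.35), *apoea* (-0.40) and *apoc1* (-0.59) were then called lower, and *mttp* and *apoa2* turned sign. *apoa4a* (0.38) and *apoeb* (0.32) were still called higher with library sizes alone, and *apoba* (-0.74) was still called lower. *apoa1a* (0.09) was not called there (adjusted p = 0.356), nor with upper-quartile factors (adjusted p = 0.0644, within the range given above).

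**Figure D3:**
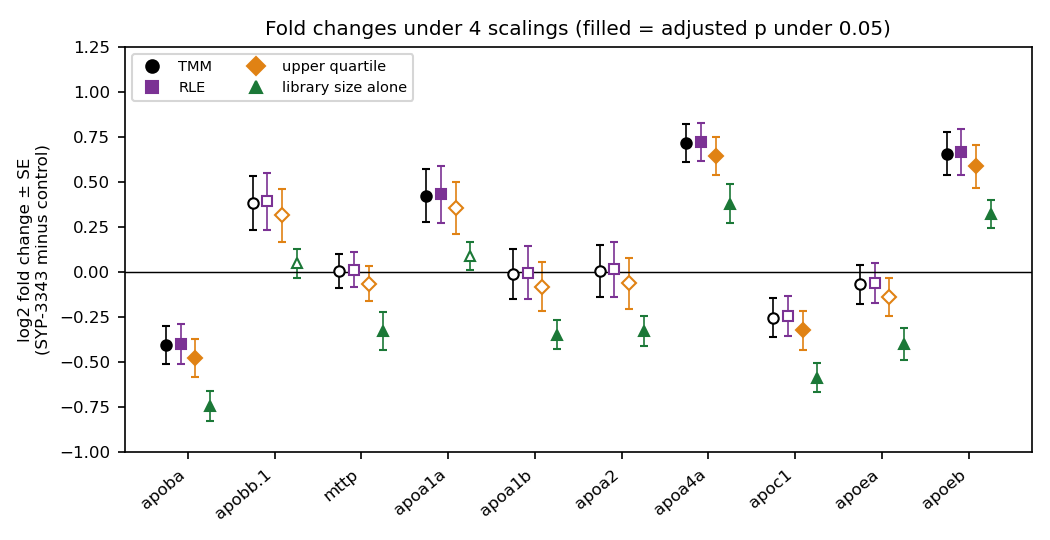
Log2 fold change, SYP-3343 minus control, ± SE (y axis) of the 10 genes under TMM, RLE and upper-quartile factors and with library sizes alone. Filled symbols have an adjusted p under 0.05. Library sizes alone set every gene lower by about the same amount. *apoa4a* and *apoeb* stay above 0 and *apoba* stays below 0 with filled symbols under all 4.

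Several members lie side by side on the genome. In the order of protein-coding genes of the RefSeq table for the assembly GRCz12tu, used here for neighbours only, 8 apolipoprotein genes form 1 cluster, running *apoa4b.1*, *apoa4b.3*, *apoa4b.2*, *apoeb*, *apoc1*, *apoc4*, *apoa2* and *apoc2*, with other genes between the *apoa4b* copies. A further 2, *apoa4a* and *apoea*, are neighbours elsewhere. Calls were not alike along either of them, though differences between neighbours were not tested. In the longer cluster *apoeb* rose (0.66 ± 0.12) while its neighbours *apoc1* (-0.25 ± 0.11) and *apoa4b.2* (0.19 ± 0.10) did not pass. At its ends *apoa4b.1*, an A-IV type gene, fell (-0.38 ± 0.11, adjusted p = 0.0151), and *apoc2*, for the activator of lipoprotein lipase, did not pass (0.0032 ± 0.11, adjusted p = 0.987), though with library sizes alone it was called lower (-0.33). Between them *apoa4b.3* rose (0.25 ± 0.092, adjusted p = 0.0424) and *apoa4b.2* did not pass (0.19 ± 0.10, adjusted p = 0.154). In the shorter cluster *apoa4a* rose and *apoea* did not pass. The call of *apoa4b.1* ended without control replicate 1 (adjusted p = 0.167), control replicate 2 (0.0532) or SYP-3343 replicate 1 (0.0676), with 3.83e-06 to 0.167 over its alternatives. That of *apoa4b.3* ended when any 1 of the 4 libraries was left out (adjusted p from 0.0684 to 0.297), its direction turned with library sizes alone (-0.086), and its alternatives ran from 0.0335 to 0.489. *apoa4b.2*, *apoa4b.3* and *apoc2* were named for their place in the cluster after their values were seen.

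**Figure D4:**
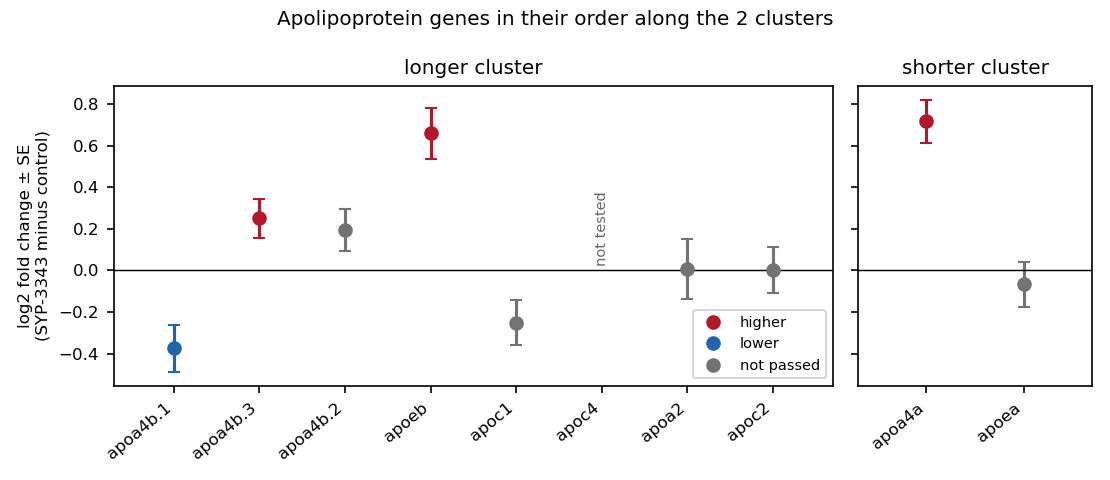
Log2 fold change, SYP-3343 minus control, ± SE (y axis) of the apolipoprotein genes in their order along 2 clusters (x axis, not to scale). Red marks higher, blue lower and grey not passed. *apoc4* was below the count filter. *apoeb* stands at 0.66 between *apoa4b.2* at 0.19 and *apoc1* at -0.25, and *apoa4a* stands at 0.72 beside *apoea* at -0.07.

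Of the other apolipoproteins, 2 of 12 tested genes rose, 4 fell and 6 did not pass, with a median of -0.01. The shares over all tested genes were 16.6% higher and 15.3% lower, and counts of this and later lists are a description beside them. *CLU*, for the secreted chaperone clusterin or apolipoprotein J, averaged 40.5 ± 8.36 CPM in SYP-3343 and 26.1 ± 2.79 CPM in control (log2 fold change 0.64 ± 0.12, adjusted p = 0.000347), a call that ended with library sizes alone (adjusted p = 0.0822, the highest of its alternatives). *apoda.1*, of the apolipoprotein D type, which is a lipocalin and carries small lipids, fell to 10.3 ± 0.339 CPM in SYP-3343, against 28.3 ± 5.80 CPM in control (log2 fold change -1.45 ± 0.13, adjusted p = 3.46e-08). The third apolipoprotein B gene, *apobb.2*, averaged 51.2 ± 16.2 CPM in SYP-3343 and 68.2 ± 7.34 CPM in control (log2 fold change -0.42 ± 0.14, adjusted p = 0.0252). Its call rested on SYP-3343 replicate 1 and control replicate 2, since it ended without either (adjusted p = 0.545 and 0.0573), and it ended with DESeq2 (0.420) and without a low-count filter (0.0609) too, its alternatives running from 1.00e-07 to 0.545. Without SYP-3343 replicate 1 the falls in this list numbered 1, without control replicate 1 or control replicate 2 they numbered 2, and without any of these 3 libraries 1 gene rose.

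Of genes for lipoprotein assembly and secretion, 10 of 34 tested genes rose, 2 fell and 22 did not pass, with a median of 0.08. Over all tested genes 16.6% were higher and 15.3% lower. *SEC24D*, for a coat protein of the vesicles that carry cargo out of the endoplasmic reticulum, averaged 93.5 ± 0.0879 CPM in SYP-3343 and 70.2 ± 1.07 CPM in control (log2 fold change 0.41 ± 0.088, adjusted p = 0.00105), and *sec23a*, for another, averaged 86.4 ± 1.07 CPM in SYP-3343 and 68.1 ± 1.04 CPM in control (log2 fold change 0.34 ± 0.088, adjusted p = 0.00487). *SOAT2*, for an enzyme that esterifies cholesterol, averaged 4.02 ± 0.0577 CPM in SYP-3343 and 2.03 ± 0.199 CPM in control (log2 fold change 1.00 ± 0.23, adjusted p = 0.00181). *DGAT1* copy ENSDARG00000103503, for an enzyme that makes triglyceride, fell to 2.57 ± 0.737 CPM in SYP-3343, against 5.20 ± 0.245 CPM in control (log2 fold change -1.01 ± 0.22, adjusted p = 0.00111). The other *DGAT1* copy, ENSDARG00000054914, named after its values were seen, did not pass (-0.23 ± 0.17, adjusted p = 0.328). The risers of this list numbered 6 without control replicate 1, SYP-3343 replicate 1 or SYP-3343 replicate 2, and 1 with library sizes alone, where the calls of *SEC24D* and *sec23a* ended. 

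Of receptors, lipases and lipid transfer genes, 11 of 34 tested genes rose, 9 fell and 14 did not pass, with a median of -0.0010. Beside these counts, 16.6% of all tested genes were higher and 15.3% lower. The LDL receptor gene *ldlrb*, whose product takes up particles that carry apolipoproteins B or E, fell to 15.3 ± 1.70 CPM in SYP-3343, against 40.05 ± 6.19 CPM in control (log2 fold change -1.39 ± 0.12, adjusted p = 1.21e-08). *LIPG*, for endothelial lipase, which acts on high-density particles, fell to 17.3 ± 0.746 CPM in SYP-3343, against 30.6 ± 0.130 CPM in control (log2 fold change -0.82 ± 0.10, adjusted p = 2.88e-06). *abca1b*, for a transporter that hands cholesterol to apolipoprotein A-I, rose to 232.7 ± 0.993 CPM in SYP-3343, against 143 ± 9.49 CPM in control (log2 fold change 0.70 ± 0.092, adjusted p = 5.41e-06). *LRP2*, for the endocytic receptor megalin, rose too (0.70 ± 0.092, adjusted p = 4.83e-06). The other gene of the *abca1b* type, *ABCA1* copy ENSDARG00000074635, went the other way. Named after its values were seen, it fell (-0.47 ± 0.092, adjusted p = 0.000474). 

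Of factors known to regulate apolipoprotein genes in liver, gut or yolk layer, 5 of 33 tested genes rose, 9 fell and 19 did not pass. Their median was -0.08, and 16.6% of all tested genes were higher and 15.3% lower. *CEBPB* rose to 119 ± 2.79 CPM in SYP-3343, against 52.4 ± 4.01 CPM in control (log2 fold change 1.19 ± 0.093, adjusted p = 2.66e-09), and *CEBPA* rose as well (0.68 ± 0.091). Both encode transcription factors of the C/EBP family. *creb3l3b*, for a membrane-bound factor of the family that in mammals activates apolipoprotein genes, rose to 10.5 ± 1.63 CPM in SYP-3343, against 4.06 ± 0.0732 CPM in control (log2 fold change 1.38 ± 0.16, adjusted p = 1.33e-06). *SREBF1*, for a master factor of fatty acid synthesis, fell to 12.3 ± 0.0041 CPM in SYP-3343, against 24.4 ± 0.470 CPM in control (log2 fold change -0.99 ± 0.11, adjusted p = 6.10e-07). *HNF4A*, a nuclear receptor that drives many of the member genes in liver and gut, fell (-0.46 ± 0.15, adjusted p = 0.0191). So did *creb3l3a*, the other copy of *creb3l3b* (-0.53 ± 0.15, adjusted p = 0.00913). The *hnf4b* gene of the same list did not pass (0.09 ± 0.17, adjusted p = 0.732). *HNF4A*, *creb3l3a* and *hnf4b* were named after their values were seen. The *HNF4A* call ended without control replicate 1 (adjusted p = 0.181) or SYP-3343 replicate 2 (0.103), within 0.000691 to 0.181 over its alternatives, and the *creb3l3a* call ended without control replicate 2 (0.0763, within 0.000386 to 0.0763). The falls of this list numbered 4 without SYP-3343 replicate 1, 6 without either control library, and 19 with library sizes alone.

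**Figure D5:**
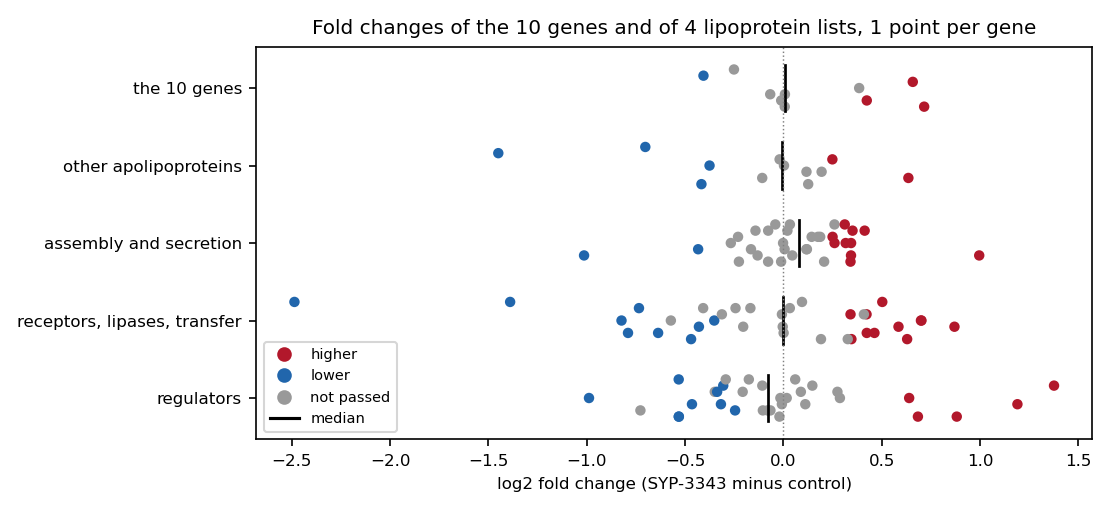
Log2 fold change, SYP-3343 minus control (x axis), of the 10 genes and of the tested genes of 4 lists (rows), 1 point per gene with arbitrary vertical offsets. Red marks higher, blue lower and grey not passed, and black bars are medians. Medians lie between -0.08 and 0.08, with genes on both sides in each row.

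Markers were read to see which tissues the libraries held. Of the list of yolk layer and plasma protein genes, 26 of 30 were tested, 8 rose and 5 fell, with a median of 0.14. Of all tested genes 16.6% were higher and 15.3% lower. With library sizes alone 3 were higher and 11 lower. The list had 4 higher without SYP-3343 replicate 2, and it had 2 lower without SYP-3343 replicate 1 and 3 lower without control replicate 1. Its summed level was 6101 and 6625 CPM in SYP-3343, against 5595 and 5526 CPM in control, and without *ctsla* the sums were 4191 and 4668 CPM in SYP-3343, against 4498 and 4428 CPM in control, which overlap (an alternative chosen after seeing the data). *tfa*, for transferrin, fell to 751 ± 26.9 CPM in SYP-3343, against 1113 ± 34.5 CPM in control (log2 fold change -0.57 ± 0.11), while *LPIN1* rose (0.73 ± 0.097), as did the cathepsin L genes *ctsla* (0.82 ± 0.12) and *ctslb* (2.15 ± 0.20), the second of which is known as a hatching gland gene. *ctslb* averaged 37.0 ± 16.5 CPM in SYP-3343 and 8.27 ± 1.16 CPM in control. Early yolk layer factors *mxtx1* and *mxtx2* and the plasma carrier *TTR* were below the count filter, and 1 *FABP1* copy was at 0 in all libraries. The other *FABP1* copy, ENSDARG00000059227, averaged 177 ± 28.8 CPM in SYP-3343 and 151 ± 6.94 CPM in control. Named after its values were seen, it did not pass (0.23 ± 0.10, adjusted p = 0.0921). With *mxtx1* and *mxtx2* below the filter, the yolk layer itself could not be set apart from other sources of these transcripts by its early factors. Vitellogenin transcripts were close to absent, with a summed 1.99 and 1.68 CPM in SYP-3343 and 2.35 and 1.85 CPM in control. Of 8 vitellogenin genes 2 were at 0 in all libraries, 3 were tested, and by edgeR none passed (0 at an unadjusted p under 0.05, and 0 with DESeq2 or limma-voom).

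Markers of other tissues were read in the same way, beside the 16.6% higher and 15.3% lower over all tested genes. Those of periderm and epidermis, of which 11 of 14 rose (median 0.48), summed to 24985 and 26969 CPM in SYP-3343, against 12619 and 11838 CPM in control. The smallest adjusted p-values were those of the keratin genes *cyt1l* (1.57 ± 0.15), *cyt1* (1.38 ± 0.15) and *krt92* (0.91 ± 0.11) and of *epcam* (0.68 ± 0.10). The keratin gene *krt4*, named after its values were seen, averaged 9393 ± 614 CPM in SYP-3343 and 4892 ± 61.7 CPM in control (0.94 ± 0.17), and was not called without control replicate 2. The risers numbered 7 without SYP-3343 replicate 1 and 6, beside 1 lower, with library sizes alone. None of that list was at 0. Macrophage and microglia markers, a cell type in which *apoeb* is strongly expressed later in life, summed to 149 and 141 CPM in SYP-3343, against 143 and 128 CPM in control, so the sums overlap, with 7 of 22 tested genes higher, 2 lower and 13 not passed. The numbers were 3 higher and 6 lower with library sizes alone, 3 higher and 1 lower without SYP-3343 replicate 1, 4 higher without control replicate 2, and 1 lower without control replicate 1, without a low-count filter or with DESeq2. *MPEG1* copy ENSDARG00000043093 rose (0.86 ± 0.17), as did *SLC7A7* (0.42 ± 0.11, not called without SYP-3343 replicate 1), and *MFAP4* copy ENSDARG00000090557 fell (-1.34 ± 0.18). *MFAP4* copy ENSDARG00000116066 rose to 3.75 ± 0.750 CPM in SYP-3343, against 0.101 ± 0.0791 CPM in control. Its control mean was close to the level of 3 counts in these libraries, 0.0508 to 0.0650 CPM on the raw totals, without TMM factors. This copy thus entered the test only through the exposed libraries, where it was high, and the 7 higher genes include it. A further *MPEG1* copy of that list was at 0. Hepatoblast and endoderm markers summed to 333 and 297 CPM in SYP-3343, against 251 and 241 CPM in control, with 5 of 13 tested genes higher. Among these were *GATA6* (0.64 ± 0.096), *TFR2* (1.00 ± 0.21) and the *CXCR4* copies ENSDARG00000041959 (1.22 ± 0.11) and ENSDARG00000057633 (1.07 ± 0.13). Only *cxcr4a* was listed, and both copies entered because their name carries no paralog letter. So the counts and sums of this list include a copy that was not a listed marker. The 1 that fell was *fabp10a*, a marker of liver cells named after its values were seen, with 0.287 and 0.512 CPM in SYP-3343, against 2.84 and 1.07 CPM in control (-2.22 ± 0.52, adjusted p = 0.00221). In this list 4 genes were lower with library sizes alone and 2 with upper-quartile factors. What share these cell types had in the changes of *apoeb*, *apoa4a*, *apoa1a* and *apoba* was not tested.

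The 5 genes whose normalized level over the 4 libraries lay nearest to that of *apobb.1*, the member with the highest mean CPM, were *pbx4*, *kif11*, *FRYL*, *EPS8* and *NRF1*. Nearness was the Euclidean distance between log2 values centred on each gene's mean, and the distances ran from 0.0145 to 0.0301. Their log2 fold changes ran from 0.37 to 0.40, against 0.39 for *apobb.1*. With 4 libraries many genes share such a pattern, so the names are a description only.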

How the data were processed

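RNA from whole embryos was measured in 2 SYP-3343 and 2 control libraries, made with a NEBNext Ultra kit after poly-T bead selection, per the labels' protocols. The authors deposited raw gene-level counts. Their tools, per the submitters' processing notes and with no role stated, included DESeq2 1.14.1, featureCounts 1.6.2, HISAT2, HTSeq and TopHat2, and the build was GRCz11. Annotation, strand setting and the treatment of reads matching several copies: not given in the sources used here. Totals ran from 46165614 to 59054470 counts, so the limit behind a value of 0, 3 counts, equals 0.0508 to 0.0650 CPM for counting error alone. This limit is taken on the raw totals, without TMM factors.

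Genes kept by filterByExpr (22647) were scaled by TMM (factors 0.923 and 0.860 for SYP-3343, 1.11 and 1.14 for control) and fitted with edgeR's quasi-likelihood model in its newer, non-legacy form, over all genes of the deposited table. The biological coefficient of variation was 10.1%. SEs are the log2 fold change divided by the root of F. Names came from a table of 23607 identifiers with a symbol; list symbols were matched with case ignored, then without the paralog suffix, so that all copies of a name entered.

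Named were all 10 members, of each list up to 4 tested genes with the smallest adjusted p, and the 5 genes nearest to the most abundant member (log2 of CPM plus 0.5, mean log2 CPM of at least 1). Members and lists were chosen with earlier results of these data known. Alternatives tried were DESeq2, limma-voom, RLE factors, upper-quartile factors, library sizes alone, no filter, a filter at 1 CPM in 2 or more libraries, the replicate number as a block, scaling without the top 20 genes by abundance, dropping each library in turn, and, added after the data were seen, the legacy fit. Where dropping a library left 1 in a group, its spread was taken from the other group. Scripts were first tested on simulated data. Tools were R 4.3.3, edgeR 4.0.16, limma 3.58.1, DESeq2 1.42.0, pandas 2.3.3, scipy 1.17.1 and matplotlib 3.10.9.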

Additional observations from a re-analysis of the deposited data

How the results depend on the processing

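*apoa4a* and *apoeb* were called higher in all 14 alternatives, *apoba* was called lower in 13 and *apoa1a* higher in 8. With library sizes alone *mttp* and *apoa2* turned to -0.33, 6 members were called lower, and the calls over all genes were 1406 higher and 9382 lower. There, 0 other apolipoproteins rose and 7 fell, 1 assembly gene rose and 16 fell, 3 receptor and lipase genes rose and 16 fell, and 19 regulators fell. With upper-quartile factors 2 members were lower and 1 other apolipoprotein rose, with DESeq2 2 members were lower and 2 other apolipoproteins fell, and without a low-count filter 1 other apolipoprotein rose and 2 fell. Leaving out each library gave 2 to 3 members higher and 0 to 1 lower, 1 to 2 other apolipoproteins higher and 1 to 4 lower, 6 to 8 assembly genes higher and 1 to 2 lower, and 4 to 7 regulators lower. It gave 8 to 11 receptor and lipase genes higher and 7 to 10 lower. Paralog differences in log2 ratio then ran from 0.40 to 0.48 for *apoa1a* over *apoa1b*, from -0.83 to -0.63 for *apoea* over *apoeb* and from -0.85 to -0.74 for *apoba* over *apobb.1*. The difference in log2 ratio over *mttp*, which turned sign, ran from -0.17 to 0.13 for *apoa1b* and from -0.14 to 0.14 for *apoa2*. The summed share of raw totals differed by -0.156 to -0.113 percentage points then, and by -0.0460 without the 20 most abundant other genes. With the TMM factors applied to all 4 libraries, the pool was instead higher in SYP-3343. *apoa4b.3* turned to -0.086 and *apoc2* to -0.33 with library sizes alone. The cause of these changes was not tested, also where a library was left out.

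Libraries with the same replicate number did not deviate together (r = -0.0274 across 22647 genes), so the number was not taken as a pairing. With the replicate block 2 members were higher and 1 lower, and 1 other apolipoprotein rose. *apoa1a* was then not called (adjusted p = 0.218, within 3.11e-05 to 0.360 over its alternatives), nor was *apoa4b.1* or *apoa4b.3*. What size of change 2 libraries per group can resolve was not tested beyond a first check on simulated counts with known changes. At these depths a value of 0 allows up to 3 counts.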

Other observations

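*apoa4a* over *apoa4b.1*, a ratio chosen after its values were seen, was 0.0407 and 0.0477 in SYP-3343 replicates 1 and 2, against 0.0208 and 0.0208 in control replicates 1 and 2, a 2.12-fold difference (exact two-sided permutation p = 0.333, the smallest possible). On the log2 scale it was 1.09, against -0.80, -0.73 and 0.44 for the 3 ratios between members. It joins the rise of *apoa4a* (0.72 ± 0.10) and the fall of *apoa4b.1* (-0.38 ± 0.11). The other A-IV genes of the longer cluster, *apoa4b.2* (0.19 ± 0.10) and *apoa4b.3* (0.25 ± 0.092), lay on the same side of control as *apoa4a*. So the ratio does not stand for the *apoa4b* copies as a group.

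Libraries of 1 group also differed. In control replicate 1 *apoa1a*, *apoa1b*, *apoa2*, *apoa4a* and *apoc1* were higher than in control replicate 2 by 0.11 to 0.21 on the log2 scale, while *apoba*, *apobb.1*, *mttp*, *apoea* and *apoeb* were lower, with differences from -0.15 to -0.01. In the SYP-3343 libraries the same 5 genes and *apoba*, *apobb.1* and *apoeb* were lower in replicate 1 than in replicate 2, with differences from -0.25 to -0.05, while *mttp* (0.05) and *apoea* (0.14) were higher.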
